A study of Mus musculus with 7 samples.

Results

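The TREM receptors, their adaptors and the kinase that acts below them were examined as 7 genes: the receptor genes Trem1, Trem2, Trem3 and Treml2, the adaptor genes Tyrobp and Hcst, and Syk. They were chosen by symbol, and each was found once among the 35641 genes of the table. The RNA came from lung cells of female C57BL6 mice, labelled as neutrophils. The sorting gate was CD45+, CD11b+, Ly6G+ and low for Ly6C. The sort was made in 2 groups, 4 HF mice and 3 LF mice. The labels do not spell the group names out, give no age, and name no treatment or allele; the series title speaks of obesity. All 7 libraries came from 1 strain and 1 sex, so nothing else in the labels separates the groups. Values are normalized counts, that is, gene reads divided by 1 factor per library.

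TREM proteins are immunoglobulin-like receptors of myeloid cells, and most of them have almost no signalling tail of their own. Trem1, Trem2 and Trem3 pair in the membrane with DAP12, the product of Tyrobp, whose tail carries an immunoreceptor tyrosine-based activation motif (ITAM). Src family kinases phosphorylate this motif, and Syk then docks on it and starts calcium, lipid and NF-kB signalling. DAP10, the product of Hcst, carries a motif that recruits phosphoinositide 3-kinase instead. TREM1 is known as an amplifier of inflammation on neutrophils and monocytes, and TREM2 as a lipid-sensing receptor of macrophages and microglia.

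Before the members were read, the sorted cells were checked against markers. Ly6g, the gene of the sort antigen Ly6G, stood at 0.749, 0 and 8.22 normalized counts in the LF columns, named LF6, LF7 and LF8, against a mean of 3264 in HF. Of 14 neutrophil markers, HF was higher for 13 and lower for 0, and their summed level ranged from 432058 to 588002 in HF and from 12926 to 14352 in LF-labelled libraries. Of 14 monocyte and interstitial macrophage markers, 0 were higher and 10 were lower, with sums of 27209 to 38537 and of 159473 to 169616. Dendritic cell markers had 1 higher and 7 lower of 12 (sums of 12318 to 28925 and of 66071 to 80585). The LF libraries thus went against their label as Ly6G+ cells, and each direction given here is a difference between HF and the LF-labelled libraries. The part of these cell types in the differences of the members was not tested. In bulk RNA, fewer cells of a type and less RNA per cell cannot be told apart.

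Promoter sequences of 4 of the 7 members were found in the RefSeq table (GRCm38.p6). Shown here are the 250 bases before the start of Trem1 and Hcst, which were higher in HF, and of Trem2, which was lower. Capitals mark matches to AGGAAGT, a form of the motif bound by the myeloid factor PU.1 and other ETS proteins (on the reverse strand, ACTTCCT). They also mark TGANTCA, a loose form of the AP-1 motif that allows any base, N, in the middle. The windows, 5′ to 3′ on the gene's strand, are chr17:48232489-48232738 (+ strand) for Trem1, chr7:30419855-30420104 (- strand) for Hcst and chr17:48346151-48346400 (+ strand) for Trem2.
Trem1: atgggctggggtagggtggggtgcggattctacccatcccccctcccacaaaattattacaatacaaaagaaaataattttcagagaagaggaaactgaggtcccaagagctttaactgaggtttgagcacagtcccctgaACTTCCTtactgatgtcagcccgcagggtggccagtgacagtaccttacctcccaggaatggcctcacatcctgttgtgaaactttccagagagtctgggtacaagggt
Hcst: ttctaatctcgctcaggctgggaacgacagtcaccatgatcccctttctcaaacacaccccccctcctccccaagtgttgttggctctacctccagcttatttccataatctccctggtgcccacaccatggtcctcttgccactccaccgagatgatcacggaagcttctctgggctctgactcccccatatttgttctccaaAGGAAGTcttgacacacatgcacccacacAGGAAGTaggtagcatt
Trem2: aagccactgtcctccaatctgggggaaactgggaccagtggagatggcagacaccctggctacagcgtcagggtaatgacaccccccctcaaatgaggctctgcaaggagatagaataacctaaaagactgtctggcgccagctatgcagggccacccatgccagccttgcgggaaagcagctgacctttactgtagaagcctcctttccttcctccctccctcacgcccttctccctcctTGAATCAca
Hcst held AGGAAGT at 2 places, beginning 46 and 17 bases before the start, and Trem1 held it at 1 place on the reverse strand, 109 bases before the start. These letters were in 7.69% of the 32851 windows of the same length. The Trem2 window held TGANTCA at 1 place, 9 bases before the start, with A as the middle base. With any middle base, these letters were present in 6.75% of windows. A C/EBP motif, TTNNGCAAT, searched on both strands and present in 1.93% of windows, was in none of the 3 windows printed. Neither of the 2 Syk windows held any of the 3 motifs. No 2 motifs overlapped in these windows. Tyrobp, Trem3 and Treml2 are named only.

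All 7 members passed the filter on low values and the test: 6 were higher in HF and 1, Trem2, was lower. The test was limma on log2 values, with p-values adjusted over all 14936 genes tested. Across these genes 55.0% were called, 26.2% as higher and 28.7% as lower. Higher genes made up 47.7% of the calls, and 30.0% once library totals were made equal. The groups did not overlap for any of the 7 members, as for 62.2% of all tested genes. The median log2 difference of the members was 2.54, beside -0.16 for all tested genes. So a call by itself set no member apart, and the values below give the sizes and order of the differences.

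Trem1 (ENSMUSG00000042265), the receptor that amplifies inflammatory signals, stood at 11794, 13774, 14650 and 14660 normalized counts in HF1 to HF4. It stood at 288, 360 and 275 in LF6, LF7 and LF8. All 4 HF libraries were far above all 3 others, and the spread within each group was small beside that gap. The mean was 13719 ± 1349 (SD, n = 4) for HF and 308 ± 45.6 (SD, n = 3) in LF-labelled libraries, a 44.6-fold ratio. The log2 difference was 5.48 ± 0.12 (SE; limma adjusted p = 5.36e-08), and 1.45% of tested genes had a higher one. The level in LF-labelled libraries was 2.24% of that in HF, where the median neutrophil marker stood at 0.0955%. The span of Trem1 overlaps that of Gm18679, a processed pseudogene on the other strand in GENCODE M21. Whether their exons overlap was not checked. Where they do, an unstranded count could not tell their reads apart. Whether counting used strand is not given in the sources used here. Gm18679 had a mean of 664 ± 138 (SD, n = 4) for HF and of 3.93 ± 1.98 (SD, n = 3) in LF-labelled libraries, which is 4.84% and 1.28% of the Trem1 level.

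Trem2 (ENSMUSG00000023992) went the other way. It stood at 21.9, 2.57, 11.2 and 25.7 normalized counts in HF1 to HF4, from only 19, 2, 10 and 20 reads. In LF6, LF7 and LF8 it stood at 602, 530 and 446, from 804, 706 and 651 reads. The HF libraries were all low and uneven, with HF2 lowest, while the other group was high throughout. The means were 15.3 ± 10.5 (SD, n = 4) and 526 ± 78.3 (SD, n = 3), and the log2 difference was -5.36 ± 0.69 (SE; limma adjusted p = 0.000321). Without HF2 the difference was -4.74. By pooled reads Trem2 was 34.1-fold higher in LF-labelled libraries, with an interval of 25.8 to 45.9 (exact, 95%, counting error only). Of tested genes, 0.904% had a lower difference than Trem2. Its HF level was 2.92% of that in LF-labelled libraries, where the median monocyte and interstitial macrophage marker kept 25.8%. Alveolar macrophage markers did not share one direction, with 4 higher and 3 lower of 10 tested and a median log2 difference of 1.11. Their sum was 36609 in HF1, 12312 to 13811 in the other HF libraries and 25442 to 28716 in LF-labelled libraries. Of the list only Marco, named after its values were seen, was at 0 in all 4 HF libraries, and it was also at 0 in LF7 and LF8.

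Trem3 (ENSMUSG00000041754), a DAP12-paired receptor next to Trem1 in the genome, stood at 7160, 6378, 6352 and 8776 normalized counts in HF1 to HF4. The corresponding values in LF6, LF7 and LF8 were 974, 1059 and 1004. HF4 was highest, and the 3 LF-labelled libraries lay close together. The log2 difference was 2.81 ± 0.12 (SE; limma adjusted p = 7.83e-07), from means of 7166 ± 1136 (SD, n = 4) and 1012 ± 43.2 (SD, n = 3). The level in LF-labelled libraries was 14.1% of that in HF, a larger part than for Trem1. Treml2 (ENSMUSG00000071068), a TREM-like receptor of neutrophils, macrophages and B cells, stood at 1236, 1045, 1141 and 1470 in HF1 to HF4 and at 180, 124 and 164 in LF6, LF7 and LF8. Even its lowest HF library, HF2, was far above its highest LF-labelled library, LF6. The means were 1223 ± 182 (SD, n = 4) and 156 ± 28.8 (SD, n = 3), with a log2 difference of 2.97 ± 0.19 (SE; limma adjusted p = 5.82e-06). Of 5 tested B cell markers, 0 passed in either direction (limma). Their sums were 5161 to 10779 in HF and 6829 to 7603 in LF-labelled libraries.

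Tyrobp (ENSMUSG00000030579), the DAP12 gene, was the steadiest member within groups. Its normalized counts were 32226, 31920, 30976 and 33453 in HF1 to HF4 and 14908, 14327 and 14247 in LF6, LF7 and LF8. It was abundant in every library, and the gap between the groups was far wider than the spread within either. The means were 32144 ± 1022 (SD, n = 4) and 14494 ± 360.5 (SD, n = 3), a 2.22-fold ratio, with a log2 difference of 1.15 ± 0.04 (SE; limma adjusted p = 4.53e-07). This call depends on the scaling. With equal library totals the difference was 0.63, and after quantile normalization it was 0.09 and no longer passed (limma adjusted p = 0.121; range of 8.82e-118 to 0.121 in all alternatives).

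Hcst (ENSMUSG00000064109), the DAP10 gene, stood at 2621, 2391, 2250 and 2680 normalized counts in HF1 to HF4 and at 424, 472 and 387 in LF6, LF7 and LF8. Every HF value was well above the others. The means were 2486 ± 200.4 (SD, n = 4) and 428 ± 42.7 (SD, n = 3), and the log2 difference was 2.54 ± 0.12 (SE; limma adjusted p = 1.05e-06). Hcst and Tyrobp are neighbours that face each other by their 3′ ends in GENCODE M21, with no overlap between their annotated spans. Hcst had a difference of 2.54 and Tyrobp one of 1.15, and their intervals (2.27 to 2.81 and 1.05 to 1.25, 95% by limma) did not meet.

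Syk (ENSMUSG00000021457), the kinase that binds phosphorylated ITAMs, stood at 18773, 16787, 19771 and 21057 normalized counts in HF1 to HF4. It stood at 8821, 8050 and 8531 in LF6, LF7 and LF8. The HF libraries were about as uneven as those of Trem1, yet none came near the other group. The means were 19097 ± 1802 (SD, n = 4) and 8467 ± 389 (SD, n = 3), with a log2 difference of 1.17 ± 0.08 (SE; limma adjusted p = 1.02e-05). The difference was 0.65 once library totals were made equal and 0.29 under quantile normalization, and both passed.

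**Figure D1:**
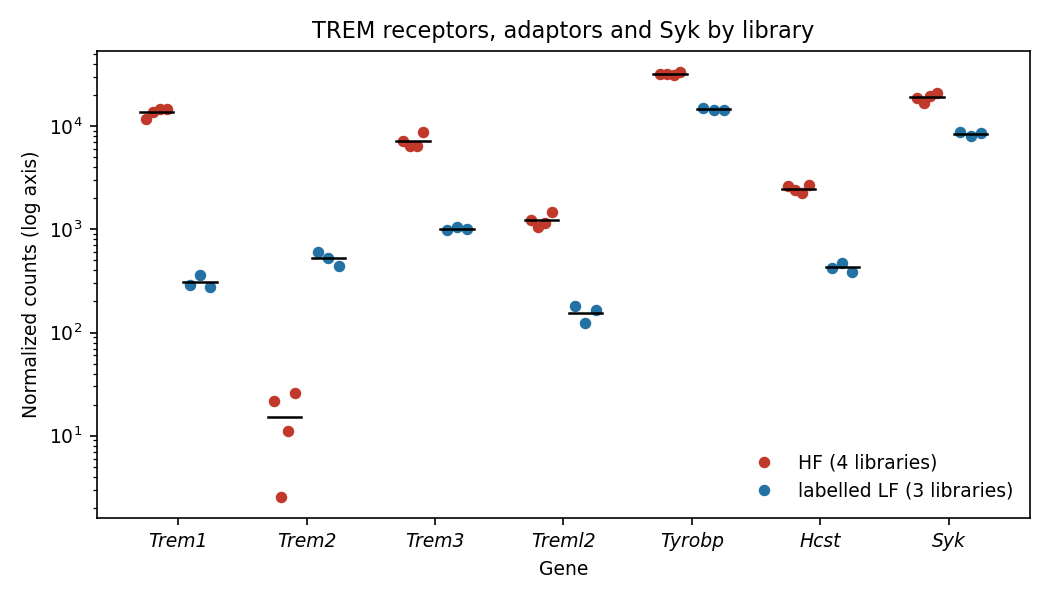
Normalized counts (log axis) of the 7 genes in each library, with 1 point per library and a bar at the group mean; red points are the 4 HF libraries and blue points the 3 LF-labelled libraries. The groups do not overlap for any gene, and Trem2 alone is lower in HF, at 2.57 to 25.7 against 446 to 602.

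Within HF, all 7 members were highest in HF4, which also had the largest sum of normalized counts. With equal library totals HF4 was highest for 4 members, Trem2, Trem3, Treml2 and Syk. Dixon's test for a single outlying library, applied to the 4 HF values of each member, set no library apart. The authors' deposited table gives log2 fold changes of 5.48 for Trem1, -5.10 for Trem2, 2.82 for Trem3, 2.97 for Treml2, 1.15 for Tyrobp, 2.54 for Hcst and 1.17 for Syk. These have the same sign as the differences given here for every member, and the value for Trem2 is the nearer to 0.

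Levels of different genes can be set side by side only per length, so normalized counts were divided by the merged exon length of GENCODE M21. On this scale, in normalized counts per 1000 bases, Tyrobp was the highest member in every library, at 48191 ± 1533 (SD, n = 4) for HF and 21730 ± 540.5 (SD, n = 3) in LF-labelled libraries. Trem3 came next in every library, at 7210 ± 1143 (SD, n = 4) and 1019 ± 43.5 (SD, n = 3). Below these, the order in all 4 HF libraries was Trem1, Hcst, Syk, Treml2 and Trem2. Trem1 at 4579 ± 450 and Hcst at 3443 ± 278 (SD, n = 4) were the nearest neighbours in that order, and their values did not overlap. Among the LF-labelled libraries, Syk at 904 ± 41.6 and Hcst at 592 ± 59.2 followed Trem3 (SD, n = 3). Trem2 at 106 ± 15.8 and Trem1 at 103 ± 15.2 per 1000 bases did not differ beyond their spread there, and Treml2 was lowest at 31.7 ± 5.86 (SD, n = 3). Among 14923 tested genes with a length, Trem1 stood at percentile 98.6 of HF levels and 61.7 of the levels in LF-labelled libraries. Trem2 stood at percentile 6.61 and 62.4. These levels rest on the GENCODE lengths, since the annotation behind the authors' counts is not given in the sources used here. The lengths merge the exons of every annotated transcript, 4946 bases for Trem2 and 2996 for Trem1. Where the transcripts in use are shorter, the level per length is understated, and order and percentile may shift.

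The makeup of the receptor counts, which no factor per library can change, differed between the groups. Of the summed normalized counts of Trem1, Trem2, Trem3 and Treml2, Trem1 held 58.4%, 65.0%, 66.1% and 58.8% in HF1 to HF4. In LF6, LF7 and LF8 it held 14.1%, 17.3% and 14.5%. Trem1 thus held a larger share of these counts in every HF library than in any LF-labelled library. The shares are not per length, so they set libraries side by side and not genes. Per 1000 bases of merged exon, Trem3 was above Trem1 in every library. Trem2 held 0.0121% to 0.108% in HF and 23.6% to 29.5% in LF-labelled libraries. Trem3 held 28.7% to 35.4% in HF and 47.6% to 53.2% in LF-labelled libraries. Treml2 held 4.93% to 6.11% and 5.98% to 8.79%, and these ranges overlapped. The sum of the 4 genes was 22124 ± 2033 (SD, n = 4) for HF and 2002 ± 99.3 (SD, n = 3) in LF-labelled libraries.

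**Figure D2:**
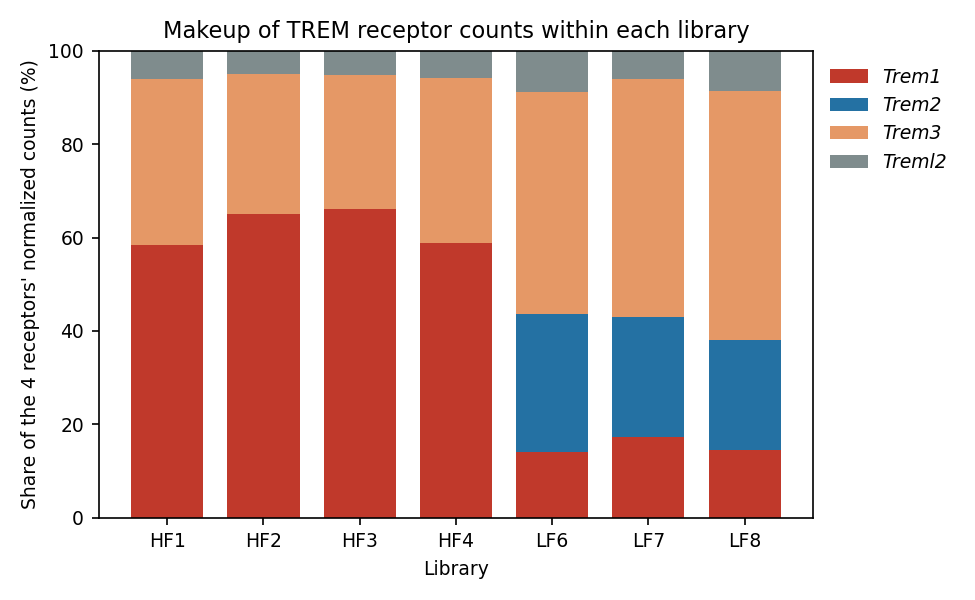
Share (%) of Trem1, Trem2, Trem3 and Treml2 in their summed normalized counts, with 1 stacked bar per library. Trem1 takes 58.4% to 66.1% of the bar in HF and 14.1% to 17.3% in LF-labelled libraries, where Trem2 takes 23.6% to 29.5%. The counts are not per length, so the bars compare libraries and not genes.

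Relative to Tyrobp in the same library, the groups stayed apart for the receptors and Hcst and overlapped for Syk. The log2 ratio of Syk to Tyrobp was -0.78, -0.93, -0.65 and -0.67 in HF1 to HF4 and -0.76, -0.83 and -0.74 in LF6, LF7 and LF8. These ranges overlapped, and the group means of -0.76 ± 0.13 (SD, n = 4) and -0.78 ± 0.05 (SD, n = 3) were closer than the spread in either group. Syk and Tyrobp thus stood in about the same proportion in all 7 libraries. Trem1 relative to Tyrobp was -1.23 ± 0.16 in HF (SD, n = 4) and -5.56 ± 0.22 in LF-labelled libraries (SD, n = 3). For Trem3 the values were -2.18 ± 0.18 (SD, n = 4) and -3.84 ± 0.09 (SD, n = 3), and for Treml2 -4.73 ± 0.17 (SD, n = 4) and -6.55 ± 0.26 (SD, n = 3). Hcst was at -3.70 ± 0.08 (SD, n = 4) and -5.08 ± 0.15 (SD, n = 3). Trem2 lay on the other side, at -11.30 ± 1.30 (SD, n = 4) and -4.79 ± 0.19 (SD, n = 3). No overlap was seen for these 5 genes. Treml2 relative to Trem3 averaged -2.55 ± 0.06 (SD, n = 4) and -2.71 ± 0.34 (SD, n = 3), with overlapping ranges. The ratios are given as values, with no test. An exact rank test of 4 against 3 libraries could give no two-sided p below 0.0571.

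**Figure D3:**
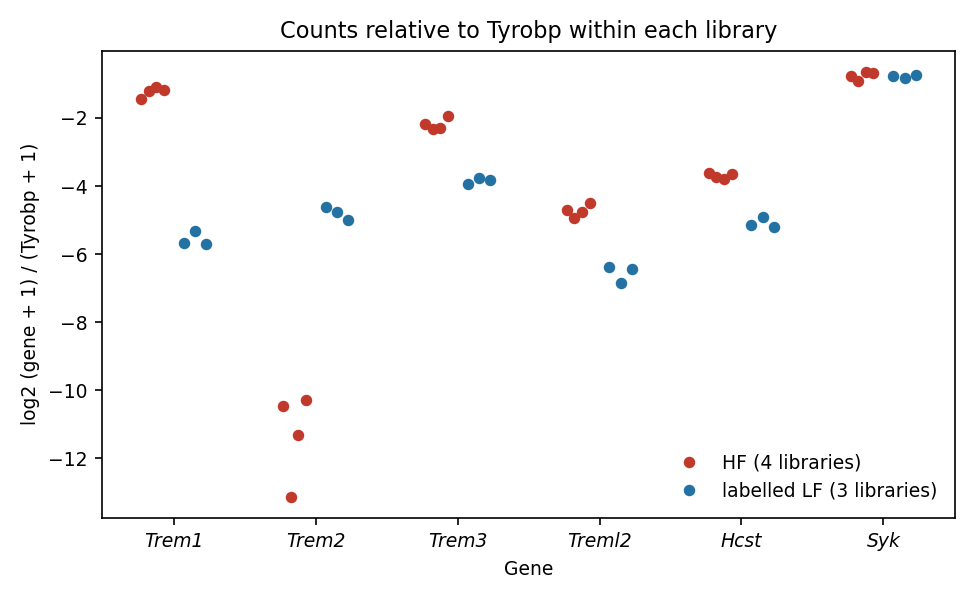
Log2 ratio of each gene to Tyrobp within a library, with a pseudocount of 1 and 1 point per library; red points are HF and blue points the LF-labelled libraries. Syk lies at -0.93 to -0.65 in all 7 libraries, while the other genes separate by group.

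The 4 receptor genes and 3 TREM-like genes lie side by side on chromosome 17 on 1 strand, in the order Trem1, Trem3, Treml4, Treml2, Treml6, Trem2 and Treml1 in GENCODE M21. Some neighbours in this cluster differed in opposite directions. Treml6, a TREM-like gene that the table names B430306N03Rik, had a mean of 10882 ± 726 (SD, n = 4) for HF and of 1601 ± 390 (SD, n = 3) in LF-labelled libraries, a log2 difference of 2.79 ± 0.16 (SE; limma adjusted p = 2.94e-06). Treml4, a receptor of macrophages, dendritic cells and monocytes, stood between the higher genes Trem3 and Treml2 and was lower in HF. Its values were 1016, 2246, 1592 and 1920 in HF1 to HF4 and 4624, 5195 and 5778 in LF6, LF7 and LF8, a log2 difference of -1.67 ± 0.25 (SE; limma adjusted p = 0.000734). HF1 was the lowest, and the groups did not overlap. Treml1, a receptor of platelet granules, stood at 0, 64.3, 87.5 and 1.28 in HF and at 5.24, 2.25 and 3.42 in LF-labelled libraries, and was not called (limma adjusted p = 0.548; range of 0.0688 to 0.905 in all alternatives). It was seen mainly in HF2 and HF3. The summed platelet markers, Treml1 among them, ran from 733 to 3257 in HF, with HF3 highest and HF2 lowest, and from 151 to 343 in LF-labelled libraries.

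**Figure D4:**
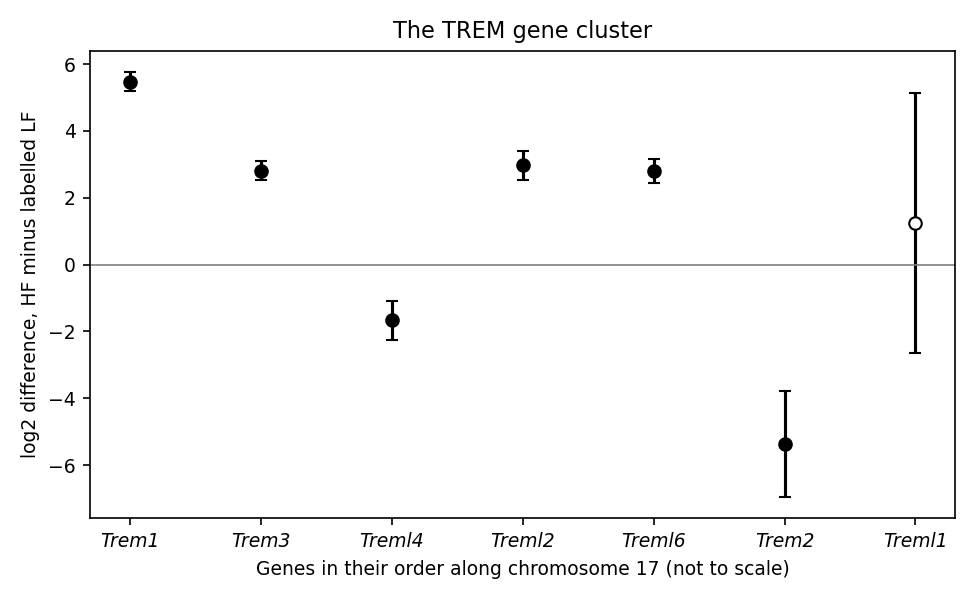
Log2 difference (HF minus LF-labelled libraries) of the 7 TREM genes in their order along chromosome 17, with 95% intervals from limma; filled points passed an adjusted p of 0.05 and the open point did not. Treml4 at -1.67 and Trem2 at -5.36 lie below 0. Treml4 lies between Trem3 at 2.81 and Treml2 at 2.97, and Trem2 between Treml6 at 2.79 and Treml1 at 1.26, the open point.

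Ligand genes split. Of 6 tested genes of TREM ligands, 3 were higher, 1 was lower and 2 missed the threshold, with a median log2 difference of 0.0045, beside -0.16 for all tested genes. Pglyrp1, which encodes a granule peptidoglycan-binding protein that TREM1 recognises, had a mean of 13028 ± 1365 (SD, n = 4) for HF and of 1015 ± 203 (SD, n = 3) in LF-labelled libraries, a log2 difference of 3.69 ± 0.14 (SE; limma adjusted p = 4.58e-07). Apoe, a lipoprotein component bound by TREM2, went the other way, at 3694 ± 571 (SD, n = 4) and 13345 ± 937 (SD, n = 3), a log2 difference of -1.86 ± 0.12 (SE; limma adjusted p = 6.40e-06). Pglyrp1 and Apoe, named for their low p, differed in the directions of Trem1 and Trem2. The list as a whole went both ways, so this does not carry over to the other ligands. Whether ligand genes go with their receptors was not tested. Clu, named after its value was seen, was higher by 1.93 (limma adjusted p = 0.0313), but not without HF2 (limma adjusted p = 0.0725). Leaving out LF6, LF7 or LF8 also ended the call (limma adjusted p = 0.063, 0.105 and 0.0677), as did no filter and equal library totals (0.0555 and 0.0826). Hmgb1 was higher by 0.37 (limma adjusted p = 0.00972), but the direction turned to -0.15 at equal library totals and to -0.06 under quantile normalization. The galectin gene Lgals3 had means of 7441 and 9279 and was not called (limma adjusted p = 0.128). It was called lower without HF4 (limma adjusted p = 0.000471). It was also called lower at equal library totals, at -0.88 (limma adjusted p = 0.00184), and under quantile normalization, at -1.20 (limma adjusted p = 0.000129). Over all alternatives its adjusted p ran up to 0.261.

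Receptors listed as other partners of DAP12 or DAP10 also went both ways. The adaptor that each of them uses was not tested, and Cd300ld in particular may use another one. Of 15 tested, 7 were higher, 3 were lower and 5 missed the threshold, with a median of -0.39 against -0.16 for all tested genes. The sign of this median depended on the setting. It was 1.499 with a mean of at least 50, 0.13 with edgeR under either scaling and 0.15 with DESeq2. Siglec15 was under the filter. Cd300ld had a mean of 27430 ± 1965 (SD, n = 4) for HF and of 4064 ± 581 (SD, n = 3) in LF-labelled libraries, a log2 difference of 2.76 ± 0.10 (SE; limma adjusted p = 3.85e-07). Sirpb1b was higher by 2.16 and Cd300lb by 1.68. Csf1r, the receptor of macrophage colony-stimulating factor, whose signalling draws on DAP12, was lower, at -1.26 ± 0.07 (SE; limma adjusted p = 3.64e-06). The other lower genes, named after their values were seen, were Klrk1 at -3.57, the DAP10 partner NKG2D of NK cells, and Sirpb1a at -0.39, whose limma adjusted p was 0.0161 and became 0.0591, 0.0519 and 0.0544 without LF6, LF7 and LF8. Csf1r and Klrk1 also stand in the monocyte and NK cell marker lists. Members of the Sirpb1, Pilrb and Cd300 families resemble each other closely, so reads may have been split between them and their values are uncertain.

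Among the other ITAM adaptors, only Fcer1g, the Fc receptor gamma chain, was called among 7 (1 higher and 0 lower). It averaged 16215 ± 1133 (SD, n = 4) and 11550 ± 213 (SD, n = 3), a log2 difference of 0.49 ± 0.06 (SE; limma adjusted p = 0.00034). The direction turned to -0.033 at equal library totals and to -0.44 under quantile normalization. The other 6 are the CD3, zeta and B cell receptor chains of lymphocytes, which did not pass, among them Cd3d with means of 341 and 234 (limma adjusted p = 0.142) and Cd79a with means of 528 and 283 (limma adjusted p = 0.463). Of 8 tested Src and Syk family kinases, 3 were higher, 1 was lower and 4 missed the threshold, with a median of 0.24. That is near the share of all tested genes, of which 55.0% were called. Fgr was higher by 0.83 ± 0.09 (SE; limma adjusted p = 0.000128) and Lyn by 0.36 ± 0.08 (SE; limma adjusted p = 0.00682), both kinases of myeloid cells. Fgr turned to -0.15 after quantile normalization, and Lyn to -0.54 there and to -0.16 with equal library totals. Fyn was lower at -2.24 ± 0.25 (SE; limma adjusted p = 0.000132), and Yes1, named after its value was seen, was higher by 2.61 from a mean of 51.2 in HF. The limma adjusted p of Yes1 was 0.0298, and it became 0.0553, 0.0568, 0.0669 and 0.109 without HF3, HF4, LF7 and LF8. It was 0.0592 with no filter, 0.0524 at equal library totals and 0.0539 under quantile normalization.

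Below Syk, 14 of 25 genes of scaffolds and effectors were higher, 4 were lower and 7 missed the threshold, with a median of 0.72. For all tested genes the median was -0.16, with 26.2% called higher and 28.7% lower. Pik3r5, a regulatory subunit of phosphoinositide 3-kinase gamma, was higher by 1.39 ± 0.09 (SE; limma adjusted p = 5.05e-06), and Rasgrp4, a Ras activator of myeloid cells, by 1.89 ± 0.12 (SE; limma adjusted p = 6.99e-06). Lat2, the NTAL adaptor that is phosphorylated below ITAM receptors, was lower, at 121 ± 26.8 (SD, n = 4) and 1259 ± 35.7 (SD, n = 3), a log2 difference of -3.39 ± 0.21 (SE; limma adjusted p = 4.92e-06). Prkcd, a protein kinase C, was lower at -0.39 ± 0.05 (SE). The other 2 lower genes, named after their values were seen, were Vav2 at -2.90 and Plcg1 at -1.18. The limma adjusted p of Plcg1 was 0.0386, and it became 0.0663, 0.0808, 0.124 and 0.0931 without HF1, LF6, LF7 and LF8. It was 0.0709 with no filter and 0.238 under quantile normalization, and edgeR with the authors' factors gave 0.0543. Of 15 inhibitors of ITAM signalling, 7 were higher, 4 were lower and 4 missed the threshold, with a median of 0.30. Pag1, a membrane anchor for the kinase CSK, was higher by 2.88 ± 0.12 (SE; limma adjusted p = 6.41e-07). Ptpn6, the phosphatase SHP-1, was higher by 0.75 and turned to -0.25 after quantile normalization, and Dok3, an adaptor that restrains ITAM signals, was higher by 1.03. The lower genes, named after their values were seen, were the ubiquitin ligase gene Cblb at -2.86, Dok1 at -1.07, Dok2 at -0.83 and Ubash3b at -0.67. Dok2 overlapped between the groups, and its limma adjusted p of 0.0477 became 0.0893, 0.0811, 0.051, 0.182 and 0.125 without HF2, HF3, HF4, LF7 and LF8. It was 0.0915 with no filter and 0.328 under quantile normalization, where the difference was -0.37, and edgeR with the authors' factors gave 0.0504. For Ubash3b the limma adjusted p of 0.0215 became 0.0756 without LF6 and 0.0738 without LF7.

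Of 8 cytokine genes known to be induced through TREM1, 6 were higher, 1 was lower and 1 missed the threshold, with a median of 2.18. Across all tested genes 26.2% were called higher and 28.7% lower, with a median of -0.16. Il1b averaged 92246 ± 6330 (SD, n = 4) and 2501 ± 371 (SD, n = 3), a log2 difference of 5.21 ± 0.10 (SE; limma adjusted p = 3.38e-08). Cxcl2, a neutrophil chemokine, was higher by 5.17 ± 0.20 (SE; limma adjusted p = 3.96e-07) and Tnf by 2.53 ± 0.57 (SE; limma adjusted p = 0.00613), with Tnf at 2667 in HF2 and at 407 to 792 in the other HF libraries. Ccl2, a monocyte attractant named after its value was seen, was lower at -3.90 (limma adjusted p = 0.0489). This call was lost without HF3, HF4, LF6, LF7 or LF8 (limma adjusted p = 0.0666, 0.0606, 0.112, 0.115 and 0.11). With edgeR on recovered reads Ccl2 was at -2.68 with the authors' factors and -2.69 with TMM, and was not called (edgeR adjusted p = 0.0622 and 0.0611). The limma call was also lost with no filter, with a pseudocount of 0.5 and under quantile normalization (limma adjusted p = 0.0848, 0.0667 and 0.0693). Il6, also named after its values were seen, stood at 440 in HF3 and at 0 to 15.4 in the other 6 libraries; it did not pass, and its difference turned from 1.34 to -0.23 without HF3. Of 6 reported genes that cut TREM2 or partner it in the membrane, 1 was higher and 5 were lower. Ms4a4a and Ms4a6d, of a membrane family linked to soluble TREM2, were lower at -4.67 ± 0.48 and -5.08 ± 0.65 (SE; limma adjusted p = 9.41e-05 and 0.000311), and Ms4a7, named after its value was seen, at -6.27. The sheddase genes Adam10 and Adam17, also named after their values were seen, were lower at -0.79 and -0.82. Psenen, a gamma-secretase subunit, was higher by 1.03.

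The lipid macrophage genes that accompany Trem2 elsewhere went both ways. Of 16, 4 were higher, 4 were lower and 8 missed the threshold, with a median of -0.30 against -0.16 for all tested genes. The tetraspanin gene Cd9 was higher by 3.74 ± 0.14 (SE; limma adjusted p = 3.48e-07) and the beta-glucan receptor gene Clec7a by 1.52 ± 0.07 (SE; limma adjusted p = 1.49e-06). Axl, a receptor for dying cells, was lower at -3.75 ± 0.36 (SE; limma adjusted p = 6.08e-05). Named after their values were seen, Cd63 at 4.16 and Itgax at 0.75 were the other higher genes, and Lpl at -3.78, Ctsb at -1.57 and Lipa at -0.62 the other lower ones. Itgax did not pass with equal library totals or after quantile normalization (limma adjusted p = 0.273 and 0.0665), nor Lipa without LF8 (limma adjusted p = 0.0544).

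**Figure D5:**
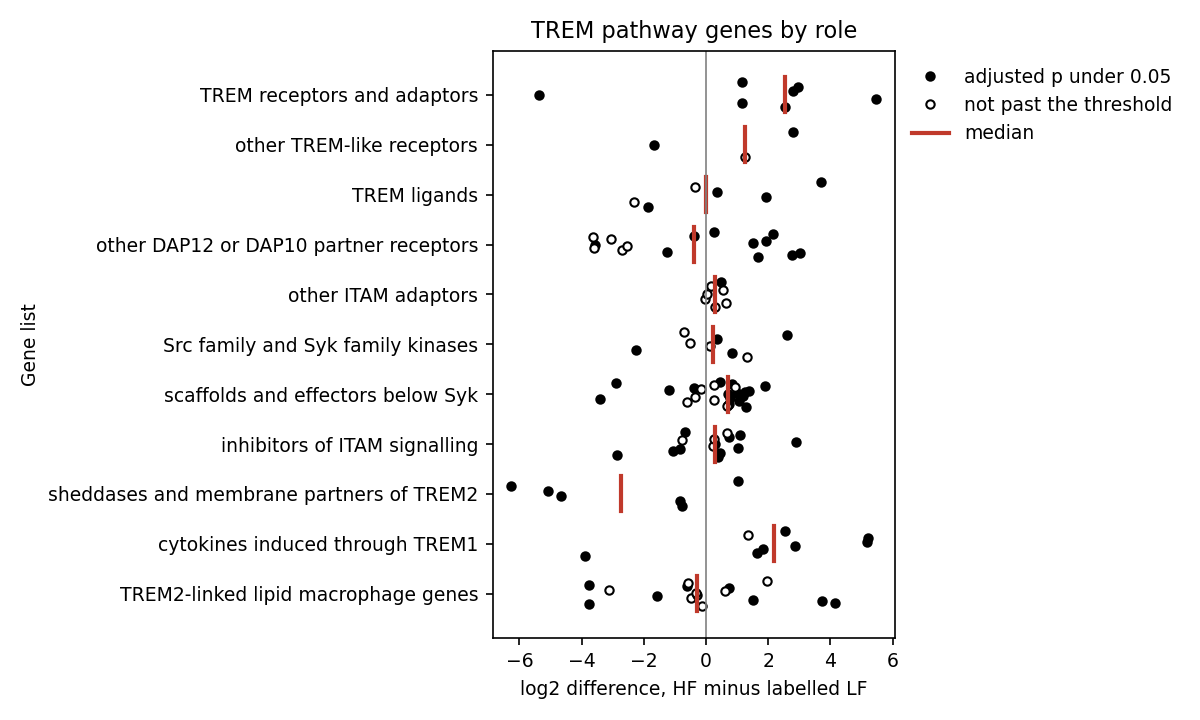
Log2 difference (HF minus LF-labelled libraries) of each tested gene, by list; filled points passed an adjusted p of 0.05 (limma), open points did not, and the red line is the list's median. Trem2 at -5.36 and Trem1 at 5.48 are the outermost members, and the medians of the other lists lie between -2.74 (the 6 reported sheddases and partners of TREM2) and 2.18.

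Genes with a pattern like that of each member were found by the distance between log2 profiles over the 7 libraries, each centred on its own mean. The 9557 candidates were genes whose mean reached 50. Left out were the members, mitochondrial genes and genes named as predicted genes, clones or pseudogenes, Treml6 (B430306N03Rik) among them. The distance is a root mean square difference in log2 units, and it describes these libraries only. Nearest to Trem1 were Il1b at 0.148, Sfxn5 at 0.170 and Ppp1r3b at 0.175, and 12 genes lay within 0.25. Nearest to Tyrobp were Itgam, the CD11b gene of the sort, at 0.0398, then Cd52 and Emb, and 862 genes lay within 0.25. Within this distance few genes shared the pattern of Trem1, and many that of Tyrobp. Differences as large as that of Trem1 were also rarer. Of tested genes, 1.45% had a higher difference than Trem1 and 22.4% a higher one than Tyrobp. The distance between Syk and Tyrobp themselves was 0.0885, and that between Trem3 and Hcst was 0.172. Syk lay closest to Ptbp3 at 0.0470, Sf3b2 and Rab5if, with 808 genes within 0.25. For Trem3 the nearest were Rab27a at 0.0681, Stk17b and B4galt3 (107 genes within 0.25), for Treml2 they were Ddx60 at 0.0859, Retreg1 and Chsy1 (54 genes), and for Hcst Tmem71 at 0.0840, Txn1 and Ifi27 (146 genes). Trem2, whose HF values rest on 51 reads in all, had no gene within 0.25. Its nearest were Ift22 at 0.635, Fn1, the fibronectin gene, at 0.669 and Phf11a at 0.690.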

How the data were processed

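The deposited table holds 35641 genes in 7 libraries. TRIzol LS was used for the RNA and a SMART-Seq kit for the libraries, per the labels' protocols. Tools named in the submitters' processing notes, without roles, are featureCounts 1.6.3, DESeq2 1.20.0 and STAR 2.6.1b; the genome build is not given in the sources used here. The values the authors deposited are normalized counts, here handled as signal. All of them (100.0%, within 0.01) were whole multiples of 1 read, so raw counts were recovered: 13943173 to 16599658 reads for HF libraries and 16974428 to 18983351 for LF libraries. Per the file headers, the authors' log2 fold changes stand beside them with standard errors, test statistics (score columns) and p-values.

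HF1 to HF4 match the labels. LF6, LF7 and LF8 share no number with an LF sample and were mapped to the group only; 0 columns stayed unmapped. The design text counts mice per group but does not tie each library to a mouse, so the spread behind each p-value is that between libraries and may be technical. No 2 libraries of the same group agreed within sampling noise. Over genes, the median chi-square between the reads of 2 libraries was 12.1 to 16.2 in HF. It was 2.29 to 3.00 in LF-labelled libraries, where sampling noise alone gives 0.455. The LF-labelled libraries were thus closer to each other than the HF libraries were.

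limma 3.58.1 (R 4.3.3, with its trend option) was fitted to log2 values after adding 1, for genes whose mean reached 10; adjustment followed Benjamini and Hochberg, and calls were made at 0.05. On this scale the differences of low genes depend on the pseudocount and on the lowest library, and can be larger or smaller than the ratio of means. Ratios and shares have no test. Settings varied one by one were the pseudocount (0.5, 5), the filter (none, 50), the scaling (equal totals, quantile), the tool (edgeR 4.0.16 with the authors' factors or TMM, and DESeq2 1.42.0, on recovered reads) and the libraries, each left out in turn. On recovered reads edgeR called 7624 genes. Scripts were tested on simulated data. Intervals from reads cover counting error only, since no molecular identifiers tell independent molecules apart.

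The members and gene lists were chosen with earlier results of these data known. The naming rule took every member, in each list up to 3 genes by lowest p plus the gene of highest mean, and the 3 nearest patterns. Treml6 was matched through a RefSeq synonym (GRCm38.p6), and Epx was not matched. In the list of TREM2 sheddases and partners 1 gene is not reported here; it was removed after the values were seen, so the counts and median of that list cover the other 6 genes and describe those alone. Marker lists not described with the results gave 0 higher and 1 lower of 10 tested for NK cells, 0 and 0 of 8 for T cells, 4 and 0 of 7 for platelets, and 3 and 0 of 7 for eosinophils and basophils.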

Additional observations from a re-analysis of the deposited data

How the results depend on the processing

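All 7 members kept their direction under all 16 alternatives; Tyrobp alone lost its call, after quantile normalization, where 6 members were called. That setting moved the log2 ratios to Tyrobp (HF minus LF) to 5.34 for Trem1, -5.39 for Trem2, 2.41 for Trem3, 3.15 for Treml2, 2.54 for Hcst and 0.20 for Syk, and the share differences to -22.1 percentage points for Trem3 and -0.143 for Treml2. It called 2 ITAM adaptors and 7 inhibitors, against 1 and 11, and equal library totals called 0 ITAM adaptors. Leaving out 1 library at a time, Syk relative to Tyrobp ran from -0.015 to 0.078 and turned sign without HF3, HF4 or LF7.

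Equal library totals moved the median of all tested genes by -0.51, so that 30.0% of calls were higher in HF, against 47.7%. Under it the median log2 difference turned to -0.52 for TREM ligands, -0.22 for ITAM adaptors, -0.28 for kinases and -0.22 for inhibitors, and single genes to -0.15 for Hmgb1, -0.033 for Fcer1g and -0.16 for Lyn. Quantile normalization turned the medians to -0.63 for ligands, -0.27 for kinases, -0.0675 for inhibitors and 0.067 for lipid macrophage genes, and single genes to -0.065 for Hmgb1, -0.44 for Fcer1g, -0.15 for Fgr, -0.54 for Lyn and -0.25 for Ptpn6. The median of the DAP12 or DAP10 receptors turned to 1.499 with a mean of at least 50, to 0.13 with edgeR under either scaling and to 0.15 with DESeq2. The ligand median, near 0, ran from -0.065 to 0.055 with 1 library left out and turned sign without HF1, HF4 or LF7. Il6 ran from -0.23 (without HF3) to 2.70 with 1 library left out. The cause of these turns was not tested.

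No paired analysis was possible because the labels name no pairs of HF and LF mice. The LF columns also carry other numbers than the labels of the LF samples, so the replicate block was not run. Depth limits Trem2 most in HF, where it rests on 51 reads in all.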
